A study of Mus musculus with 6 samples.

Results

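The 6 sarcomeric myosin light chain genes Myl1, Myl2, Myl3, Myl4, Myl6b and Mylpf were followed in mouse soleus with and without estrogen receptor beta, a hormone-activated transcription factor whose gene is Esr2. Members were all probe sets whose array annotation gave exactly 1 gene symbol that was one of these 6. This gave all 6 genes, of 8251 genes named in this way, through 9 of 12422 probe sets. One array each was run on total RNA of soleus from 3 samples of male estrogen receptor beta knockout mice, which the labels call BERKO, and 3 samples of male wild-type C57BL/6 mice. The labels give neither the strain of the knockout nor the age of the mice, and they leave it unsaid whether the samples are separate animals, so p-values cover the spread between these samples, which may be technical. Replicate numbers follow the order of accessions.

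Each myosin head of striated muscle carries an essential (alkali) light chain and a regulatory light chain, which bind to the lever arm of the heavy chain and tune the speed and force of the cross-bridge. The regulatory chains can be phosphorylated by light chain kinases, and the chains occur in slow, fast and embryonic forms that follow the fibre type. Myl3 and Myl6b encode slow essential chains, Myl2 the slow regulatory chain, Myl1 the fast essential chain, Mylpf the fast regulatory chain and Myl4 the embryonic and atrial essential chain. Soleus is a postural muscle of slow and fast oxidative fibres and expresses slow and fast chains side by side. In whole muscle, fewer fibres of a type and less RNA per fibre cannot be told apart.

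The sequence before the transcription start is shown for Myl3 and Myl1, the slow and fast essential chains, because these were the members whose knockout and wild-type intensities did not overlap. The 250 bases before the start were taken from RefSeq (GRCm38.p6), at chr9:110763428-110763677 on the plus strand for Myl3 and at chr1:66945057-66945306 on the minus strand for Myl1. Capitals mark matches on either strand to the E-box (CANNTG), which myogenic factors bind, the MCAT motif (CATTCC) of TEAD factors, and the CArG box of serum response factor.
Myl3: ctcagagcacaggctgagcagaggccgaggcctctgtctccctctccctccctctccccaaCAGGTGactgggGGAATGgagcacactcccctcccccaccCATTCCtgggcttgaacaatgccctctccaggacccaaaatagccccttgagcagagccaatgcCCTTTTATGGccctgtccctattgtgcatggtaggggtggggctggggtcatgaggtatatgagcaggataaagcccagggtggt
Myl1: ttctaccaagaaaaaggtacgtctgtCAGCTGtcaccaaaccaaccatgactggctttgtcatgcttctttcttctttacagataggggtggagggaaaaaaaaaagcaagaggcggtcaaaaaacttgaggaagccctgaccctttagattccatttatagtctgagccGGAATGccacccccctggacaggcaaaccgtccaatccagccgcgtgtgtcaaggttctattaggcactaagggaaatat

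All 6 genes matched the RefSeq table, with 7 windows of 250 bases in all. An E-box stood in a window of 5 of the 6 genes, all but Myl4, and in 66.22% of 32851 windows of all genes. The MCAT motif stood in the windows of 2 members, Myl3 and Myl1, against 12.64% of all windows. The CArG box stood in the window of 1 member, Myl3, and in 1.47% of all windows. The MEF2 box was in none of the 7 windows, and in 2.92% of all windows. These motif matches do not overlap each other in the windows shown, and they describe letters, not bound sites.

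The arrays had medians of 36.8 to 39.3 in the knockout and 39.8 to 40.55 in wild type, and they correlated at r between 0.948 and 0.966 across tested probe sets, which are not independent replicates. Esr2 itself read 8.4, 3.9 and 6.2 in the knockout and 2.2, 3.2 and 1.3 in wild type, at or near the floor of 7.8, so the labels could not be checked from it. The first principal component, with 27.0% of the variance, had its largest score in size on knockout replicate 2 (23.7, against 5.23 on wild-type replicate 2). The second, with 23.8%, had it on wild-type replicate 2 (23.8, against 9.68 on knockout replicate 2). Each of these 2 arrays thus stood out on a different component. They share a title prefix that the other 4 arrays do not have. What the prefix stands for is not stated in the labels. The skeletal muscle markers were bright. Of 5 tested 5 were higher and 0 lower in the knockout, with a median log2 difference of 0.27 and 0 past the adjusted threshold. After quantile normalization 4 were higher and 1 lower, with a median of 0.044. Ckm (log2 difference 0.023) and Des (0.11) had overlapping groups. Skeletal actin Acta1 read 11326.6 to 12167.3 in the knockout and 8176.7 to 11140.8 in wild type, and myoglobin Mb 8151.1 to 9799.4 in the knockout and 6829.3 to 7940.9 in wild type. Haemoglobin Hba-a1, a blood marker, read 4499.9 on wild-type replicate 1, against 2029.4 to 2277.4 in the knockout and 1662.2 and 1788 on the other wild-type arrays. Wild-type replicate 1 was also the array with the lowest Myl1, Myl2 and Myl3, and the part of blood RNA in this was not tested. Adipocyte markers, 3 of 5 on the array, summed to 312.2 to 358.1 in the knockout and 367.4 to 574.4 in wild type, and smooth muscle markers to 802.2 to 906 in the knockout and 752 to 825.6 in wild type. Probe sets differ in brightness, so intensities of different genes were not ranked against each other.

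The slow and fast light chains read higher in the knockout on average, about 1.16-fold for Myl3 and Myl2, 1.20-fold for Myl1 and the brighter Mylpf probe set, 1.26-fold for Myl6b and 1.07-fold for the dimmer Mylpf probe set, and no member passed the adjusted threshold. These amounts depended on the normalization: after quantile normalization the log2 difference was 0.050 for Myl1, 0.00026 for Myl2 and -0.024 for Myl3, against 0.27, 0.21 and 0.21 under the authors' scaling. Of the 9 probe sets 8 passed the filter on dim values and were tested, 6 of them higher and 2 lower in the knockout, against 7 higher and 1 lower after median scaling or cyclic loess. Of the 8, 0 passed an adjusted p of 0.05 in limma, as was so for 0 of all 6369 probe sets tested (0%), and the smallest adjusted p on the array was 0.923. At an unadjusted p under 0.05 stood 2 of the 8, Myl1 and Myl3, both higher, where 2.81% of all tested probe sets were called in that direction. These were also the 2 whose groups did not overlap, where 5.45% of all tested probe sets were higher without overlap. Among the brightest 1% of probe sets, which hold both, that share was 43.8%. The median log2 difference of the 8 was 0.21, against -0.016 over all tested probe sets. Over the 4 arrays that share a title prefix all 8 read higher and 0 passed, with log2 differences of 0.31 for Myl1, 0.24 for Myl3, 0.34 for Myl2, 0.43 for Myl6b and 0.46 for the brighter Mylpf probe set. The other prefix holds 1 array of each group, so it gives no estimate of its own.

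**Figure D1:**
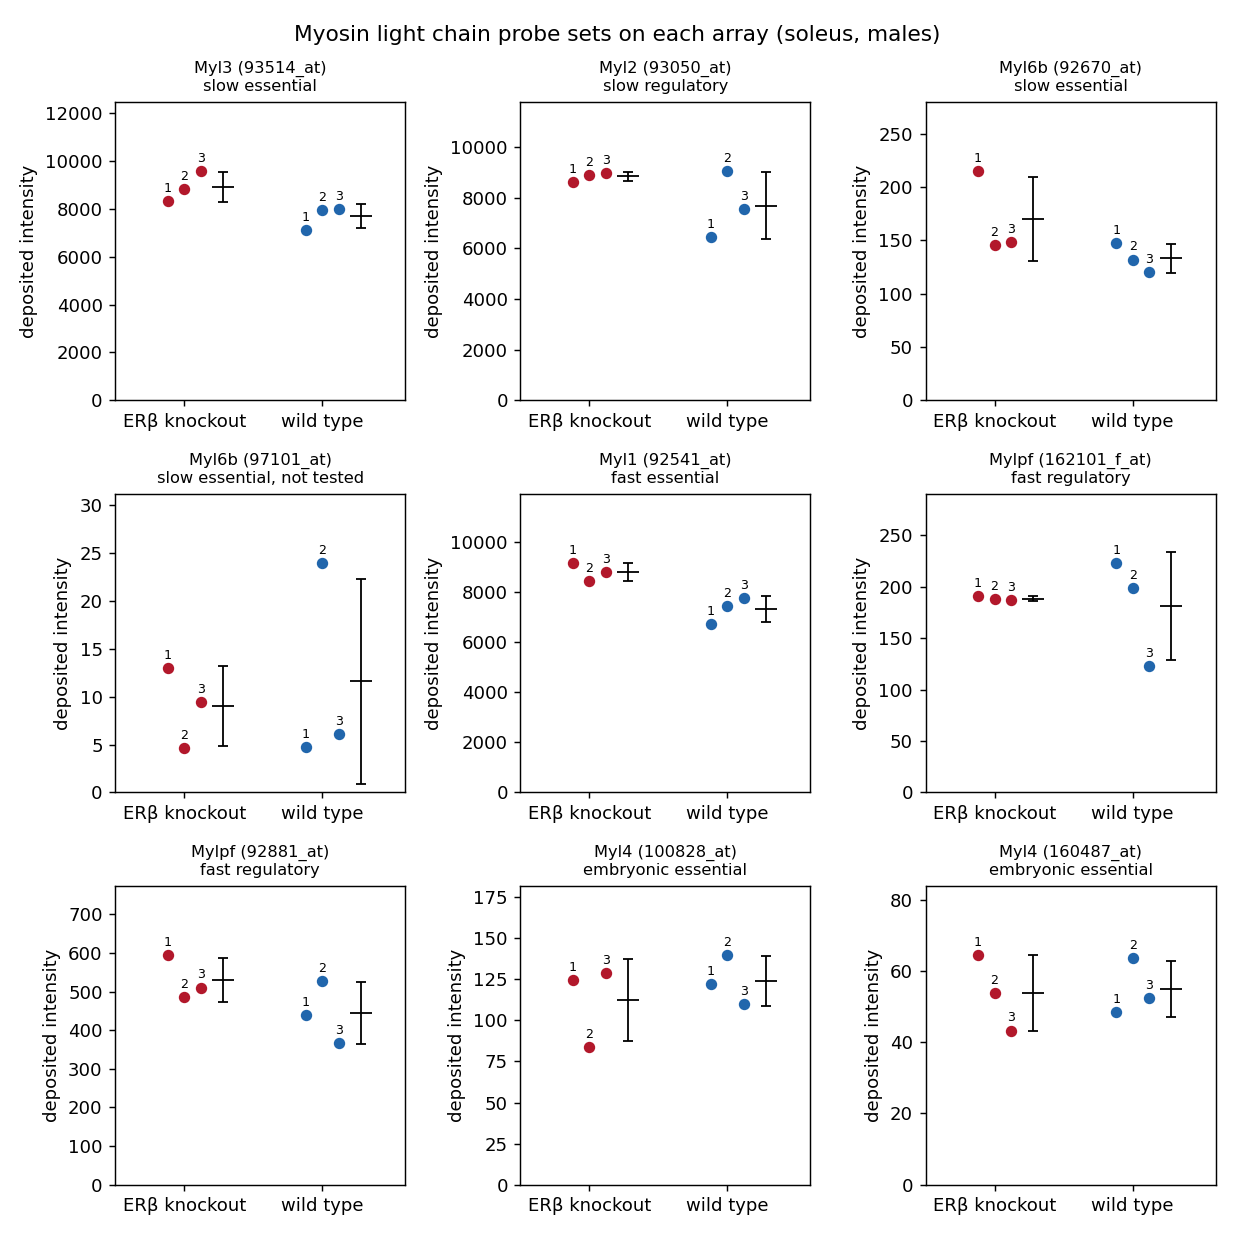
Deposited intensity (y axis, linear, from 0) of the 9 light chain probe sets on each of the 3 ERβ knockout arrays (red, left) and 3 wild-type arrays (blue, right); numbers are replicates, and bars give the mean and SD of each group. For Myl3 and Myl1 the knockout points all lie above the wild-type points, and for the other 7 probe sets the groups overlap.

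Among the slow chains, Myl3 was the member with separated groups. It read 8321.9, 8827.4 and 9600.1 in the knockout and 7108.4, 7951.7 and 8005.1 in wild type, so the lowest knockout array lay above the highest wild-type array. The means were 8916 ± 644 in the knockout and 7688 ± 503 in wild type (SD, n = 3 each), a log2 difference of 0.21 ± 0.08 (SE; 95% interval 0.03 to 0.40; limma adjusted p = 0.923). It was 0.16 without wild-type replicate 1.

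Myl2 had the same mean difference but a wider wild-type spread. It read 8641.4, 8902.2 and 8999.6 in the knockout and 6461.9, 9073.6 and 7555.4 in wild type. Wild-type replicate 2 lay above all knockout arrays, and wild-type replicate 1 lay lowest. The coefficient of variation was 2.09% in the knockout and 17.0% in wild type, and the log2 difference was 0.21 ± 0.11 (SE; limma adjusted p = 0.937). That difference was 0.096 without wild-type replicate 1 and 0.34 without wild-type replicate 2.

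Myl6b, the other slow essential chain, was dimmer and more variable. Its tested probe set read 215.4, 145.8 and 148.9 in the knockout and 147.4, 132.1 and 120.1 in wild type, a log2 difference of 0.33 ± 0.18 (SE; limma adjusted p = 0.937). Knockout replicate 1 stood apart above the rest, and without it the difference was 0.15. The other Myl6b probe set read 13, 4.6 and 9.5 in the knockout and 4.8, 24 and 6.1 in wild type, below the filter on all 6 arrays, and was not tested.

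Among the fast chains, Myl1 had the difference that was largest against its error. It read 9174.1, 8458.5 and 8795 in the knockout and 6742.1, 7463.7 and 7778.8 in wild type, again with every knockout array above every wild-type array. The means were 8809 ± 358 in the knockout and 7328 ± 531 in wild type (SD, n = 3 each), a log2 difference of 0.27 ± 0.08 (SE; 95% interval 0.09 to 0.44; limma adjusted p = 0.923). That difference was 0.21 without wild-type replicate 1 and 0.31 without wild-type replicate 3, the ends of its range over single arrays left out.

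Mylpf was read by a pair of probe sets. The brighter one read 594.8, 485.4 and 510.7 in the knockout and 438.7, 527.8 and 366.8 in wild type, a log2 difference of 0.27 ± 0.15 (SE; limma adjusted p = 0.958). Its groups overlapped through wild-type replicate 2, and the difference was 0.13 without wild-type replicate 3. The dimmer one, whose name marks it in Affymetrix's scheme as shared by a sequence family, read 191.1, 187.8 and 187 in the knockout and 223.3, 198.7 and 122.7 in wild type. The knockout values of that probe set lay inside the wild-type range, and its log2 difference was 0.10 ± 0.21 (SE; limma adjusted p = 0.984) and turned to -0.16 without wild-type replicate 3.

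The embryonic and atrial chain Myl4 read lower in the knockout on average by less than its error, and the sign of its dimmer probe set turned under quantile normalization, cyclic loess and median scaling. Its brighter probe set read 124.8, 83.8 and 129.1 in the knockout and 122.2, 139.8 and 110 in wild type, with knockout replicate 2 lowest (log2 difference -0.16 ± 0.19, SE; limma adjusted p = 0.964). Without knockout replicate 2 the sign turned, to 0.041. The dimmer one read 64.5, 53.7 and 43.3 in the knockout and 48.6, 63.8 and 52.3 in wild type (log2 difference -0.04 ± 0.23, SE; limma adjusted p = 0.996). Across the 6 arrays these Myl4 probe sets correlated at r = 0.13. Of 8 markers of embryonic or regenerating fibres 4 were tested, 2 higher and 2 lower, with 0 past the adjusted threshold and a median log2 difference of 0.36. The higher ones were the adhesion molecule Ncam1 and the myogenic factor Myog. Ncam1 read 61.5, 56.9 and 75.3 in the knockout and 40.8, 38.8 and 35.8 in wild type (0.74 ± 0.21 SE, limma adjusted p = 0.923). Its groups did not overlap, where 5.45% of all tested probe sets were higher without overlap. Myog read 91, 103.6 and 49.6 in the knockout and 69.2, 22.2 and 24.8 in wild type, with overlap (1.21 ± 0.45, SE; limma adjusted p = 0.923). The lower ones, both with overlap, were the myogenic factor Myod1 (-0.24) and cardiac actin Actc1 (-0.020), and after median scaling 3 of these 4 were higher and 1 lower. Actc1 was counted by its brightest probe set, and a dimmer tested one read higher (0.19). The embryonic and perinatal heavy chains Myh3 and Myh8 were not tested. Myh3 read 30.2 to 44.9 in the knockout and 30.2 to 36.7 in wild type, and Myh8 10 to 24.6 in the knockout and 12.3 to 23 in wild type. Chrng and Chrnd were not tested either. Chrng, below the filter of 39.4, read 9.8, 12.6 and 5 in the knockout and 15.9, 15.3 and 25.6 in wild type. Chrng was lower without overlap, and the Chrnd groups overlapped. Of all tested probe sets 5.23% were lower without overlap, and no such share was taken over untested ones. Of 6 markers of cardiac muscle, where Myl4 is the atrial chain, 1 was tested, Nppa (log2 difference -0.29, adjusted p = 0.958 in limma). The summed intensity of the 6 was 161.6 to 206.5 in the knockout and 182.6 to 299.7 in wild type. Among the untested ones Tnni3 was lower without overlap (10.6, 10.6 and 15.1 in the knockout, 22.2, 40.1 and 17.4 in wild type), and the others overlapped.

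The balance of slow to fast light chains was compared within each array, as the ratio of the slow to the fast probe set of the same class. The scale of such a ratio is arbitrary, so only its change between arrays was read. For the essential chains, Myl3 over Myl1 was 0.907, 1.04 and 1.09 in the knockout and 1.05, 1.07 and 1.03 in wild type. The knockout ratios spanned the wild-type ones on both sides, and the log2 ratio differed by -0.054 ± 0.082 (SE, n = 3 each; exact two-sided permutation p = 0.8). For the regulatory chains, Myl2 over Mylpf was 14.5, 18.3 and 17.6 in the knockout and 14.7, 17.2 and 20.6 in wild type. These ratios overlapped as well, with a log2 difference of -0.051 ± 0.174 (SE, n = 3 each; exact two-sided permutation p = 0.9). In this design of 3 against 3 the smallest possible p is 0.1, so neither of the 2 ratios tested could pass.

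A composite over all adult chains did not separate the groups, and its level, set by probe brightness, carries no meaning of its own. The mean log2 intensity of the 3 slow genes minus that of the 2 fast genes was 0.094, 0.15 and 0.14 in the knockout and 0.14, 0.095 and 0.20 in wild type. The group means were 0.13 ± 0.03 in the knockout and 0.14 ± 0.05 in wild type (SD, n = 3 each), a difference of -0.013 that is smaller than either SD. Myl6b over Myl1 differed by 0.066 ± 0.212 on the log2 scale (SE) and Myl4 over Myl1 by -0.43 ± 0.22 (SE), both with overlapping groups. The Myl4 over Myl1 ratio sets a dim probe set against a bright one and was not recomputed under other normalizations. After quantile normalization Myl4 differed by -0.12 and Myl1 by 0.050, against -0.16 and 0.27 under the authors' scaling. Within the slow set, Myl3 over Myl2 differed by -0.0013 ± 0.1106 (SE), and within the fast set, Myl1 over Mylpf by 0.0021 ± 0.1869 (SE).

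**Figure D2:**
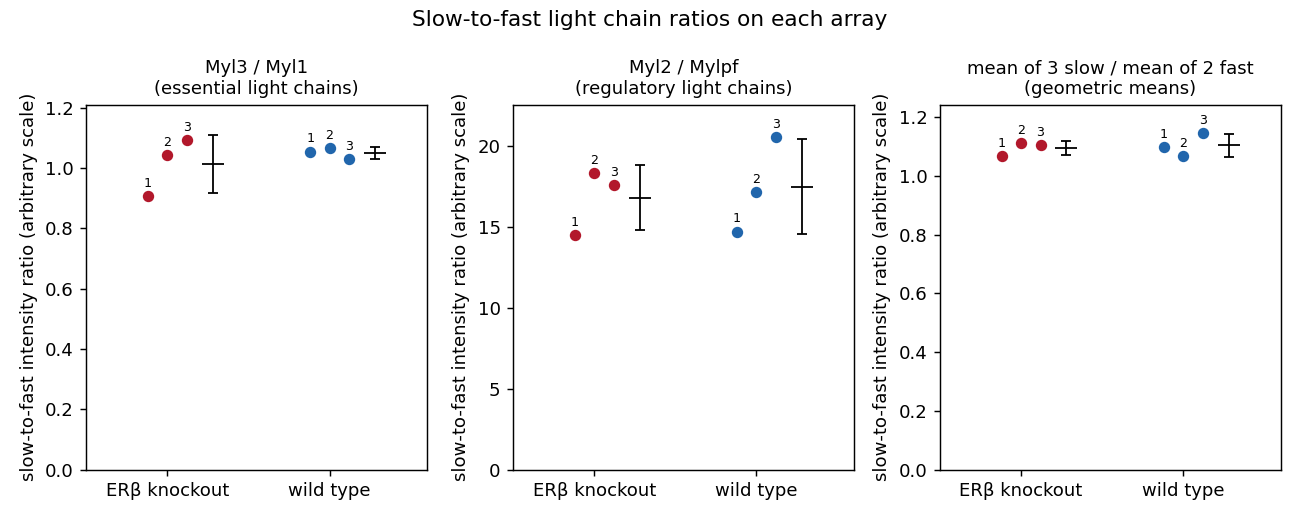
Ratio of slow to fast light chain intensity (y axis, linear, from 0, arbitrary scale) on each of the 3 ERβ knockout arrays (red, left) and 3 wild-type arrays (blue, right), with replicate numbers and the mean and SD of each group. In all 3 panels the groups overlap, and the composite lies between 1.07 and 1.15 on all 6 arrays.

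Markers of fast fibres and of the fast muscles next to soleus stood in mixed directions beside these ratios. Of 8 such markers tested 5 were higher and 3 lower, with a median log2 difference of 0.23 and 0 past the adjusted threshold, and after quantile normalization 4 were higher and 4 lower, with a median of -0.0032. The 5 higher ones were the calcium store protein Casq1 (log2 difference 0.42), the fast troponins Tnni2 (0.29), Tnnc2 (0.26) and Tnnt3 (0.24) and the calcium pump Atp2a1 (0.23), all at an adjusted p of 0.923 in limma. Their groups did not overlap except for Tnnc2, where 5.45% of all tested probe sets were higher without overlap. Among the brightest 1% of probe sets, which hold Tnnt3 and Atp2a1, that share was 43.8%. The lower ones were Myh4, Actn3 and the calcium-binding protein Pvalb (-0.32, limma adjusted p = 0.960), all with overlapping groups. Myh4, which encodes the IIb heavy chain of the fastest fibres, read 211, 790.7 and 73.8 in the knockout and 1610, 3670.9 and 499.4 in wild type, and Actn3 256.8, 340.2 and 79 in the knockout and 519.4, 922.2 and 309.9 in wild type. Myh4 and Actn3 were highest on replicate 2 of each group, where Myl1 and the brighter Mylpf probe set were lowest in the knockout, while in wild type Myl1 was in the middle and that Mylpf probe set highest on replicate 2. The summed fast markers were 27091.9 to 28568.5 in the knockout and 23342.9 to 29440.6 in wild type, and their part in the light chain ratios was not tested. Of 6 slow fibre markers tested 4 were higher and 2 lower, with a median log2 difference of 0.12 and sums of 35608.9 to 44189.6 in the knockout and 30863.9 to 40076.5 in wild type. After quantile normalization 1 of these 6 was higher and 5 were lower. Each marker was counted by its brightest probe set. For slow troponin Tnnt1 that one read higher (log2 difference 0.17), while a dimmer tested one read lower (-0.22).

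The differences of the brightest chains went with signal intensity over the whole array. Myl1, Myl2 and Myl3 lay among the brightest 1% of tested probe sets, 64 with a geometric mean of at least 3335. In that group 95.3% of probe sets read higher in the knockout, 43.8% were higher without overlap (28 of 64) and 0 were lower without overlap. Its median log2 difference was 0.18, against 0.27 for Myl1 and 0.21 each for Myl2 and Myl3. With all tested probe sets split by signal into 5 groups of like size, the median was -0.081 in the dimmest and 0.054 in the brightest.

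**Figure D3:**
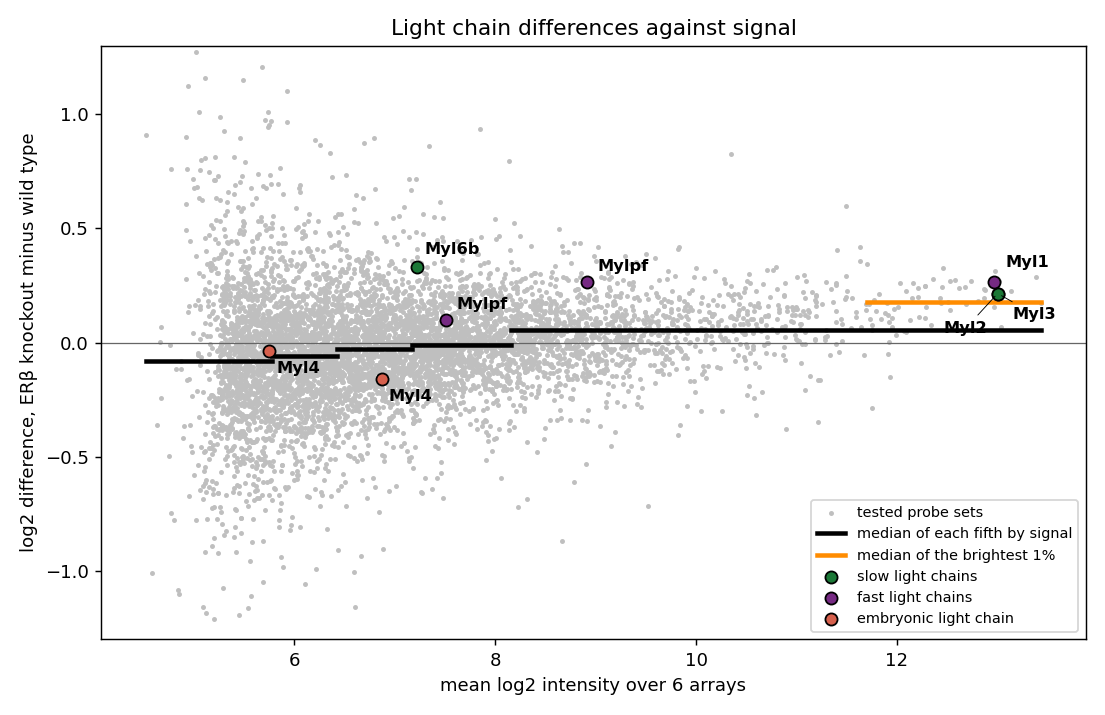
Log2 difference, ERβ knockout minus wild type (y axis), against mean log2 intensity over the 6 arrays (x axis) for the tested probe sets (grey), with the 8 light chain probe sets coloured by class; 11 probe sets lie outside the plotted range. Black lines give the median of each of 5 groups by signal (-0.081 in the dimmest, 0.054 in the brightest) and the orange line that of the brightest 1% (0.18), near which Myl1, Myl2 and Myl3 lie.

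Normalizations that remove such a trend took most of the difference from the 3 bright chains and little from the dim ones. Quantile normalization gives each rank the same value on every array, so it removes any shift that the brightest probe sets share. The source of that shift was not tested. Beside the values after quantile normalization given above, the log2 difference after cyclic loess was 0.089 for Myl1, 0.036 for Myl2 and 0.034 for Myl3. Myl6b stayed at 0.35 under both, and the brighter Mylpf probe set at 0.24 after quantile normalization and 0.23 after cyclic loess. Under quantile normalization the groups of Myl1 and Myl3 overlapped, and those of Myl6b did not, where 5.13% of all tested probe sets were higher without overlap. The Myl2 over Mylpf log2 ratio then differed by -0.24 (exact two-sided permutation p = 0.3 with n = 3 each), and that of Myl3 over Myl1 by -0.074 (exact permutation p = 0.3). Scaling to a common median, which put the median over all tested probe sets at 0.051, gave 0.33 for Myl1, 0.28 for Myl2 and 0.28 for Myl3. No member passed the adjusted threshold under any of these settings.

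**Figure D4:**
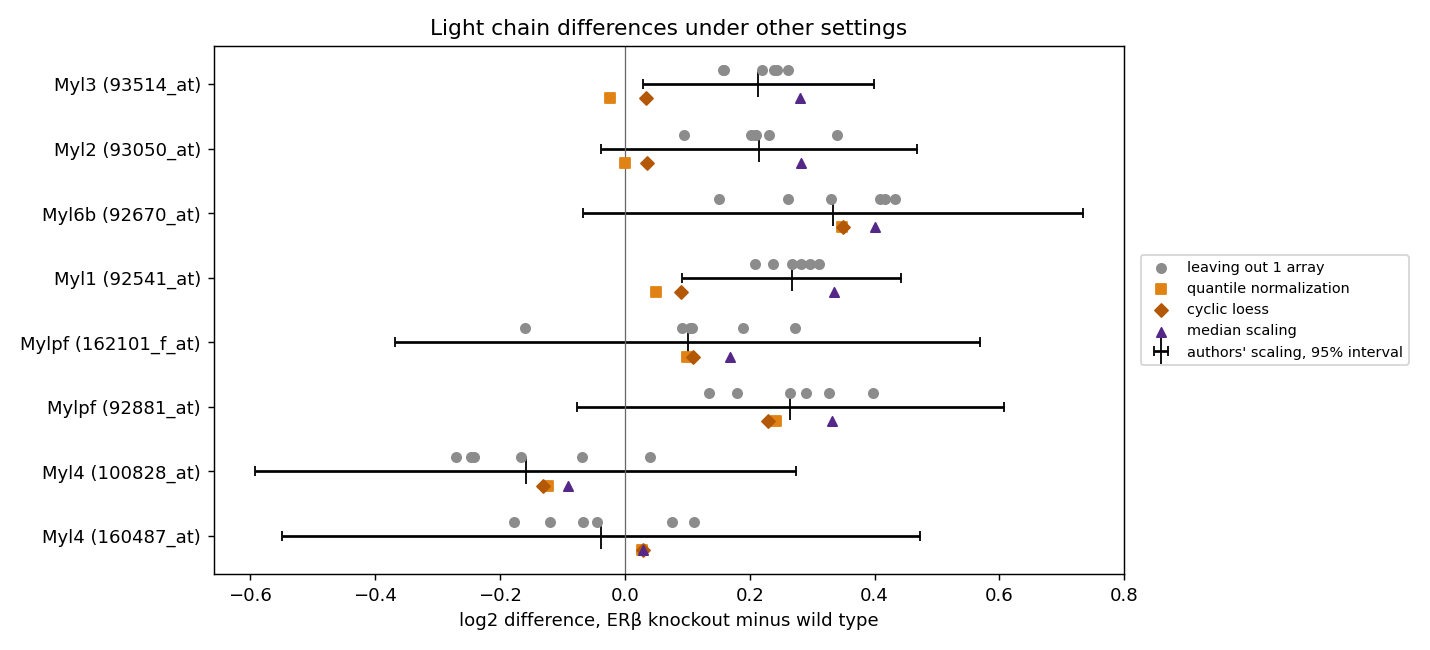
Log2 difference, ERβ knockout minus wild type (x axis), of the 8 tested light chain probe sets (rows); black bars give the value under the authors' scaling with its 95% interval, grey points the 6 fits that leave out 1 array, and coloured symbols other normalizations. For Myl1, Myl2 and Myl3 quantile normalization and cyclic loess lie between -0.024 and 0.089, while for Myl6b and the brighter Mylpf probe set they stay between 0.23 and 0.35.

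The members varied together only in part. Across the 6 arrays, log2 values of Myl3 correlated with those of Myl1 at r = 0.82 and with those of Myl2 at r = 0.79, and Myl2 with Myl1 at r = 0.73. After each group's mean was subtracted these were 0.43, 0.63 and 0.53. Myl6b followed the brighter Mylpf probe set at r = 0.76, and the pair of Mylpf probe sets gave r = 0.64. With group means subtracted these were 0.61 and 0.67. Myl3 and Myl6b, the slow essential chains, gave r = 0.14, and Myl1 with the dimmer Mylpf probe set r = -0.16. With group means subtracted those were -0.78 and -0.72. All are descriptions over 6 arrays that share scaling and group.

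The genes most like Myl1, Myl2, Myl3 and the brighter Mylpf probe set over the 6 arrays were of mixed kinds, and all 12 had an adjusted p between 0.923 and 0.958 in limma. For Myl1 they were the homeobox gene Pitx3 (Pearson r = 0.994), the vesicle coat gene Sec13 (0.987) and the ribosomal protein gene Rpl19 (0.973). For Myl3 they were the small heat shock protein gene Hspb8 (0.994), Mlf2 (0.978) and the small GTPase gene Arf1 (0.977). For Myl2 they were the splicing protein gene Snrpb (0.995), the tropomodulin gene Tmod3 (0.985) and the kinase gene Map3k5 (0.982). For Mylpf they were the transcription factor genes Gtf2h1 (0.980) and Nfic (0.970) and the serotonin receptor gene Htr7 (0.969). Between 7 and 15 probe sets of other genes exceeded r = 0.95 with each of these 4.

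Other light chain genes were mostly dim. Of 6 listed, 5 had a probe set of their own and 2 were tested, with 2 higher and 0 lower, and 0 passed. Myl12b, a non-muscle regulatory chain, read 300.1 ± 74.3 in the knockout and 248.9 ± 30.8 in wild type (SD, n = 3 each; limma adjusted p = 0.958). Myl9, the smooth muscle regulatory chain, read 108.9 ± 28.2 in the knockout and 98.3 ± 17.3 in wild type (SD, n = 3 each; limma adjusted p = 0.983). Myl7, the atrial regulatory chain, read 7.8, 9.3 and 26.8 in the knockout and 8.2, 8.4 and 6.3 in wild type, and Myl6 and Myl10 did not pass the filter either.

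Genes that set light chain phosphorylation were also measured. Of 20 listed kinase, phosphatase and calmodulin genes 10 were on the array with their own probe set and 6 were tested, 1 higher and 5 lower, with 0 past the adjusted threshold and a median of -0.17. The median was -0.13 after quantile normalization and after cyclic loess, and -0.10 after median scaling. The 4 arrays with the common prefix gave -0.074. Ppp1cb, the catalytic subunit of myosin phosphatase, read 582.5, 619.2 and 668.1 in the knockout and 861.1, 716.5 and 682.5 in wild type, without overlap (log2 difference -0.27 ± 0.12, SE; limma adjusted p = 0.923). Rock1, a kinase that inhibits that phosphatase, read 40.3, 44.8 and 52.5 in the knockout and 62.6, 77.9 and 62.6 in wild type, close to the filter of 39.4 and again without overlap (-0.56 ± 0.21, SE; limma adjusted p = 0.923). Over all tested probe sets 5.23% were lower without overlap. Camk2b, a calmodulin-dependent kinase, was the 1 higher gene among those tested. It read 556.3, 594.9 and 548.9 in the knockout and 493.3, 538.9 and 544 in wild type, also without overlap (log2 difference 0.11 ± 0.10, SE; limma adjusted p = 0.958). Higher without overlap were 5.45% of all tested probe sets. Dapk3 and Camk2a, below the filter on all 6 arrays and not tested, were also higher without overlap. The other untested genes of this list had overlapping groups. Mylk2, the skeletal muscle light chain kinase, was not analysed here.

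The heavy chains that carry these light chains differed in direction among themselves. Of 6 heavy chain genes 3 were tested, 2 higher and 1 lower, and 0 passed, while after quantile normalization or cyclic loess all 3 were lower. Myh2, Myh3 and Myh8 did not pass the filter. The Myh2 probe set read 2.2, 7.7 and 15.1 in the knockout and 5.8, 23.4 and 12.4 in wild type, so Myh2 was not compared. The slow heavy chain Myh7 differed by 0.07 ± 0.11 on the log2 scale and Myh1, a fast heavy chain, by 0.0044 ± 0.0824 (SE, limma adjusted p = 0.983 and 0.997). Myh4 differed by -2.64 ± 0.86 (SE, limma adjusted p = 0.923), with groups that overlapped. The heavy chain genes are close copies of each other, and probes may not separate them fully. Of 9 genes of myosin binding and assembly 6 were tested, 2 higher and 4 lower, with a median of -0.0068 and 0 past the threshold. Among them were cardiac myosin binding protein Mybpc3 (-0.18 on the log2 scale), the chaperone Hsp90aa1 (-0.11) and the methyltransferase Smyd1 (0.089). Their adjusted p was 0.979 to 0.987 in limma.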

How the data were processed

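Each of 6 RNA samples of soleus from males was hybridised to 1 Affymetrix mouse array. The values are the authors' deposited intensity per probe set on a linear scale, and no source used here names the software behind them. Trimmed of 2% at each end, the mean was 100.07 to 100.08 on every array, so the authors' scaling was kept. The 66 control probe sets among 12488 were dropped. The array annotation gave 1 symbol to 10833 of the others, several to 396 and none to 1193, and RefSeq (GRCm38.p6) changed 0 of the symbols.

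Values were floored at the 20th percentile (7.8) and taken to log2. Probe sets above the median (39.4) on at least 3 arrays, 6369 in all, were tested with limma 3.58.1 (R 4.3.3; lmFit, eBayes with trend) in a two-sided test, and p-values were adjusted over them all by Benjamini-Hochberg. On simulated data of 6369 probe sets for this comparison, 94 of 100 changed 4-fold and 62 of 100 changed 2-fold were called, with 9 false calls. Ratios, lists of related genes and markers use the probe set with the highest mean per gene. From each list of related genes, up to 3 with the smallest p are named, and for Myl1, Mylpf, Myl2 and Myl3 the 3 genes that correlate best over the arrays. The members, the lists and the brightest 1% of probe sets were chosen with earlier results of these data known. Plots were made in Python 3.11.15 (matplotlib 3.10.9). Precision is limited by the small number of arrays. Alternatives were other normalizations, floors, filters and eBayes settings, array weights, blocks, and leaving out each array. The 4 arrays sharing a title prefix were added as an alternative after seeing the data.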

Additional observations from a re-analysis of the deposited data

How the results depend on the processing

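No member passed the adjusted threshold under any of the 19 alternatives. Myl1, Myl2, Myl6b and the brighter Mylpf probe set had a positive difference in all 19. The floors, filters, eBayes settings and blocks left each member's difference unchanged, so only the other alternatives bear on its sign. For Myl1 and Myl2 the difference was 0.050 and 0.00026 after quantile normalization and 0.089 and 0.036 after cyclic loess. Myl3 turned to -0.024 after quantile normalization, and the dimmer Mylpf probe set spanned -0.16 to 0.27 over the 6 fits without a single array. The brighter Myl4 probe set ran from -0.27 to 0.041 over those fits and was 0.13 over the 4 arrays sharing a title prefix. The dimmer Myl4 probe set was 0.028 after quantile normalization and after cyclic loess, 0.030 after median scaling, 0.068 over those 4 arrays, and -0.18 to 0.11 with single arrays left out. The cause of these turns was not tested. The Myl3 minus Myl1 difference ran from -0.11 to 0.024 with single arrays left out, and the Myl2 minus Mylpf difference from -0.17 to 0.074, and 0.032 with the mean of all probe sets of each gene. Filters, eBayes settings and array weights do not enter these ratios. The members' median was 0.039 after quantile normalization and 0.062 after cyclic loess. Over the whole array 1 probe set passed without the filter (Hoxd1) and 1 with adjacent title numbers as a replicate block (Myh4, adjusted p = 0.0031 in limma), and 0 or 1 with single arrays left out (Tuba1a without knockout replicate 1). The probe sets at an unadjusted p under 0.05 numbered 334, and 619 without the filter, 197 with the filter at the 70th percentile, 532 with array weights, 567 over the 4 arrays, and 206 to 437 with single arrays left out. Deviations of samples with adjacent title numbers correlated at -0.0052, 0.035 and -0.0029, so the numbers were not taken to pair the samples. The replicate block left Myl1 at an adjusted p of 0.864 in limma and gave 337 probe sets at an unadjusted p under 0.05.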
